A study of Danio rerio with 8 samples.

Results

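Integrins, cadherins and their catenins were examined in retinas of adult *bbs2* -/- zebrafish and wild-type siblings. The genes were taken by symbol from the deposited count table: every row beginning with itga or itgb, with cdh followed by a digit, or with ctnna or ctnnd. The rule gave 68 of the 32520 rows, under 67 symbols, because *cdh23* had 2 identifiers. It reached beyond the classical cadherins in the strict sense, since it also took unusual family members such as *cdh13*, *cdh16*, *cdh17* and *cdh23*, the catenins that bind cadherin tails, and 2 genes that are not integrin subunits (*itgb1bp1* and *itgbl1*). The 68 rows were sorted by textbook role into 6 leukocyte integrins, 2 thrombocyte integrins, 25 matrix-receptor integrins, 1 endothelial cadherin, 12 neural and glial cadherins, 14 rows of epithelial and other cadherins, 6 catenins and the 2 others.

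There were 8 libraries, 4 from homozygous *bbs2* mutants (the HO samples, *bbs2* -/-) and 4 from wild-type siblings (the WT samples, *bbs2* +/+), and each held 2 pooled retinas. All fish were 6 months old, of both sexes, came from crosses of heterozygous *bbs2* carriers, and were kept in darkness for 16 to 20 h before dissection. Bbs2 is a subunit of the BBSome, a complex that moves membrane proteins in and out of cilia, and the mutation was carried by every cell of the fish rather than by photoreceptors alone. Retinas were dissected so as to carry little retinal pigment epithelium, and it was not stated whether the pooled retinas of a sample came from the same fish.

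Integrins are receptors made of 1 alpha and 1 beta chain that hold cells to the extracellular matrix or, in leukocytes, to other cells. Classical cadherins join neighbouring cells through calcium-dependent contacts of their outer domains, and inside the cell they are tied to actin through beta and alpha catenin, with delta catenins (the p120 family) holding them at the membrane. In the vertebrate retina, N-cadherin marks the junctions between photoreceptors and Müller glia at the outer limiting membrane, alpha-v beta-5 integrin lies on the pigment epithelium surface that takes up shed outer segments in mice, and beta-2 integrins mark microglia and other leukocytes.

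Library totals ran from 6279179 to 8442827 counts in wild-types and from 7289910 to 11496801 in mutants, and replicate libraries differed by more than counting noise, each pair giving a chi-square of at least 5.40 times its degrees of freedom. The targeted gene, *bbs2* (ENSDARG00000041621), was read at 39.8, 45.5, 42.6 and 42.8 CPM in wild-types and at 28.4, 27.3, 28.8 and 28.6 CPM in mutants, where CPM is the count scaled to library size. It was lower in all mutants (log2 fold change −0.59 ± 0.09 SE, edgeR adjusted p = 8.82e-05), and the groups did not overlap. Rod markers were present in both genotypes, and 18 of 19 cone markers were lower in mutants (94.7%, against 13.0% over all genes). The cone markers summed to 20383 to 21384 CPM in wild-types and 8518 to 10085 CPM in mutants. Pigment epithelium markers summed to 408 to 530 CPM in wild-types and to 2058, 2020, 1522 and 2058 CPM in mutant replicates 1 to 4. Mutant replicate 3 had the lowest of these sums among mutants, and *ttr* was at 0 throughout. Of 17 such markers tested, 15 were higher (88.2%, against 15.2% over all genes). In 6 of the 17 the level of the low-count filter was reached in all mutants but not in all wild-types, so these had entered the test through their high group. Mutant replicate 2 stood out for lens and ocular surface markers, which summed to 90.8 CPM there and to at most 30.8 CPM in any other library, with none of the 3 tested past the threshold.

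Counts were compared with edgeR's quasi-likelihood test over all 17144 genes that passed a filter on low counts, at a false discovery rate of 0.05, and 4824 genes (28.1%) were called. Of these, 15.2% of tested genes were higher in mutants and 13.0% were lower, with a median log2 fold change of −0.01. Among the adhesion genes, 50 rows passed the filter and 27 of those were called, 17 higher (34.0% of the 50) and 10 lower (20.0%). Their median log2 fold change was 0.18. In 9 of the 50, the filter level was reached in all mutants but not in all wild-types (*itga4*, *itgae.1*, *itgae.2*, *itgam*, *itgb7*, *itga5*, *itgb1b.1*, *itgb3b* and *itgb6*), so these had entered the test through their high group, and with at least 10 counts demanded in every library the calls were 10 higher and 7 lower. With unscaled library totals, which moved the median of all genes from −0.01 to 0.09, the calls were 20 higher and 4 lower.

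By class, 14 of the 25 tested integrin subunits were higher (56.0%, against 15.2% over all genes) and 2 lower (8.0%, against 13.0%). Their median log2 fold change was 1.08. The 9 genes named above all lie in this class and 7 of them were called. Those shares and that median thus include genes that had entered through their high group. Among the other 16 subunits 7 were higher and 2 lower, with a median of 0.51. Of the 18 tested cadherins, 2 were higher (11.1%, against 15.2%) and 7 lower (38.9%, against 13.0%), with a median of −0.25. That split varied with the setting. It was the same with median ratio scaling, and 2 were higher and 4 lower with DESeq2 (median −0.25). With unscaled library totals 2 were higher and 2 lower (median −0.15), and so it was with limma on log2 TPM (median −0.23). The difference between the classes was not tested. Over all tested genes, the groups did not overlap in 29.3%, in 15.4% with mutants above and in 13.9% with mutants below. The same was seen, with mutants above, in 16 of the 25 integrins (7 of the 16 without those 9) and in 1 of the 18 cadherins, and with mutants below in 2 and in 5. The adhesion genes together took 0.154% to 0.162% of the counts in wild-types and 0.181% to 0.217% in mutants.

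**Figure D1:**
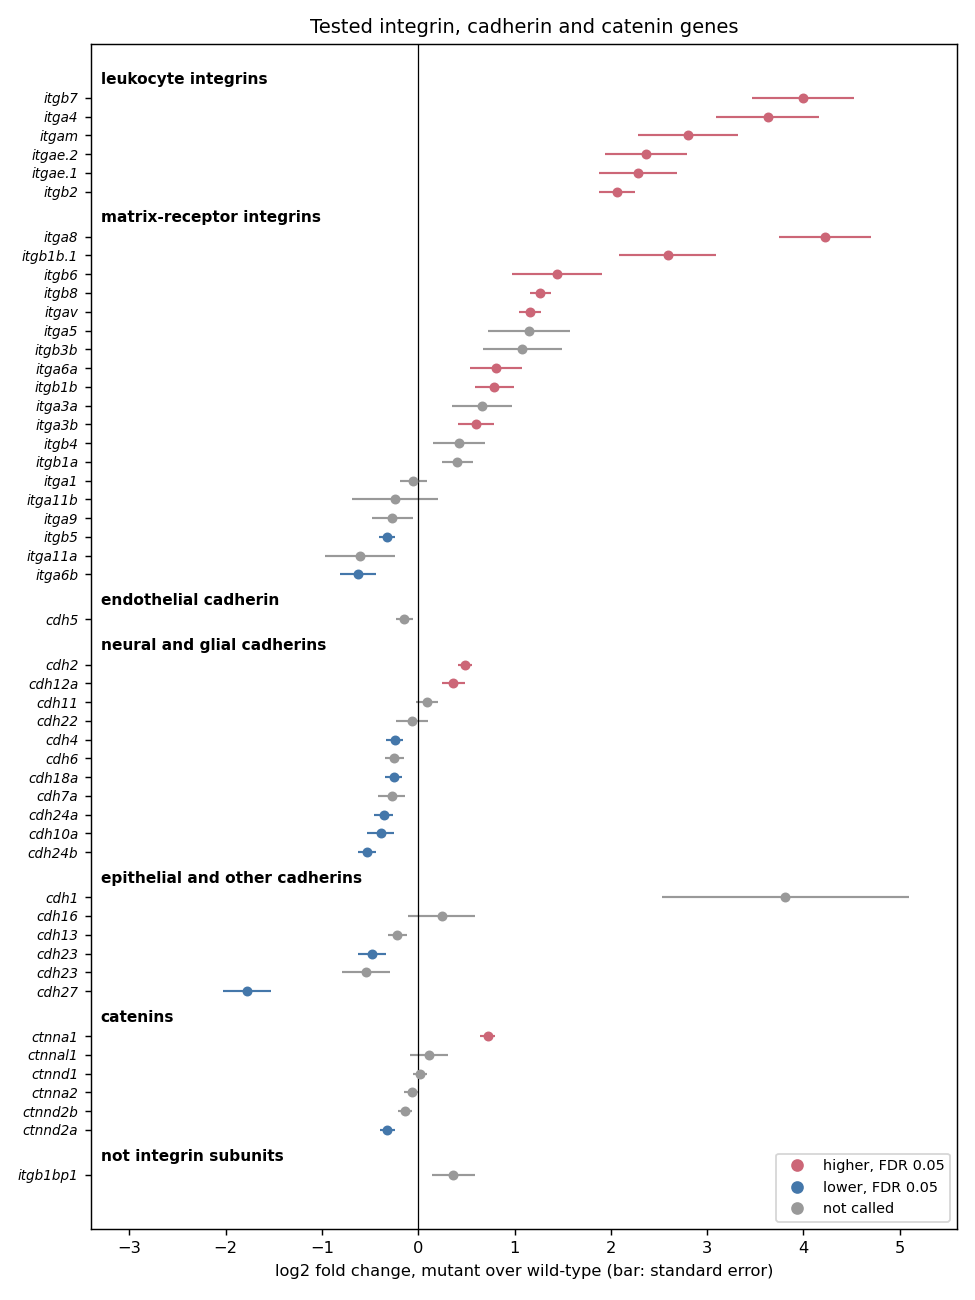
Log2 fold change (mutant over wild-type, x axis) of the 50 tested rows, grouped by role; points are edgeR estimates from 4 against 4 libraries, bars are standard errors, red and blue mark genes called higher or lower at a false discovery rate of 0.05, and grey marks genes not called. All 6 leukocyte integrins lie above 2, *itga8* reaches 4.22, and *cdh27* is the lowest at −1.78.

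All 6 leukocyte integrins rose in mutants (100%, against 15.2% over all genes), by log2 fold changes of 2.06 to 4.00. In 5 of them the filter level was reached in all mutants but not in all wild-types, so the count of 6 describes genes that had mainly entered the test through their high group, and only *itgb2* had at least 10 counts in every library. *itgb2* (ENSDARG00000016939), the beta-2 chain shared by the leukocyte integrins, was read at 3.98, 4.25, 2.93 and 2.91 CPM in wild-types and at 16.0, 15.9, 14.4 and 12 CPM in mutants. Every mutant library lay above every wild-type library, and the lowest mutant value was more than the sum of any 2 wild-type values. The change was 4.17-fold (log2 2.06 ± 0.19 SE, edgeR adjusted p = 8.17e-07). Its alpha partner *itgam*, the alpha-M chain of the complement receptor on mammalian macrophages and neutrophils, was at 0.497, 1.88, 0.976 and 0 CPM in wild-types and at 4.73, 6.35, 7.91 and 5.08 CPM in mutants. The groups were again apart, although the wild-type values rested on few counts (log2 2.80 ± 0.52 SE, edgeR adjusted p = 0.00145).

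The other 4 genes belong to the alpha-4, alpha-E and beta-7 group, which in mammals is best known from lymphocytes, where alpha-4 binds VCAM-1 and fibronectin and alpha-E beta-7 binds E-cadherin. *itgb7* (ENSDARG00000044318) had 5 counts in all wild-types together and 110 in the mutants, which came to 0, 0.125, 0.244 and 0.253 CPM against 3.09, 3.37, 1.91 and 3.08 CPM. It was close to absent in wild-types and present in each mutant (log2 4.00 ± 0.53 SE, edgeR adjusted p = 3.84e-05). *itga4* (ENSDARG00000103056) had 9 counts against 145, at 0, 0.375, 0.366 and 0.379 CPM in wild-types and 1.95, 4.24, 3.13 and 6.15 CPM in mutants. Mutant values spread over a wider range than those of *itgb7*, with replicate 4 highest and replicate 1 lowest, and none reached down to the wild-types (log2 3.63 ± 0.54 SE, edgeR adjusted p = 0.000104).

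*itgae.1* and *itgae.2* are neighbouring copies of the alpha-E gene by name, and reads may have been divided between them, so their split is uncertain. *itgae.1* was at 4.14, 0.751, 2.93 and 1.52 CPM in wild-types and at 16.4, 9.72, 7.74 and 10.6 CPM in mutants (log2 2.28 ± 0.40 SE, edgeR adjusted p = 0.00139). *itgae.2* was at 0.497, 0.625, 1.46 and 0.758 CPM in wild-types and at 3.19, 6.16, 2.52 and 6.15 CPM in mutants (log2 2.37 ± 0.42 SE, edgeR adjusted p = 0.000547). For both copies, all mutants lay above all wild-types.

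**Figure D2:**
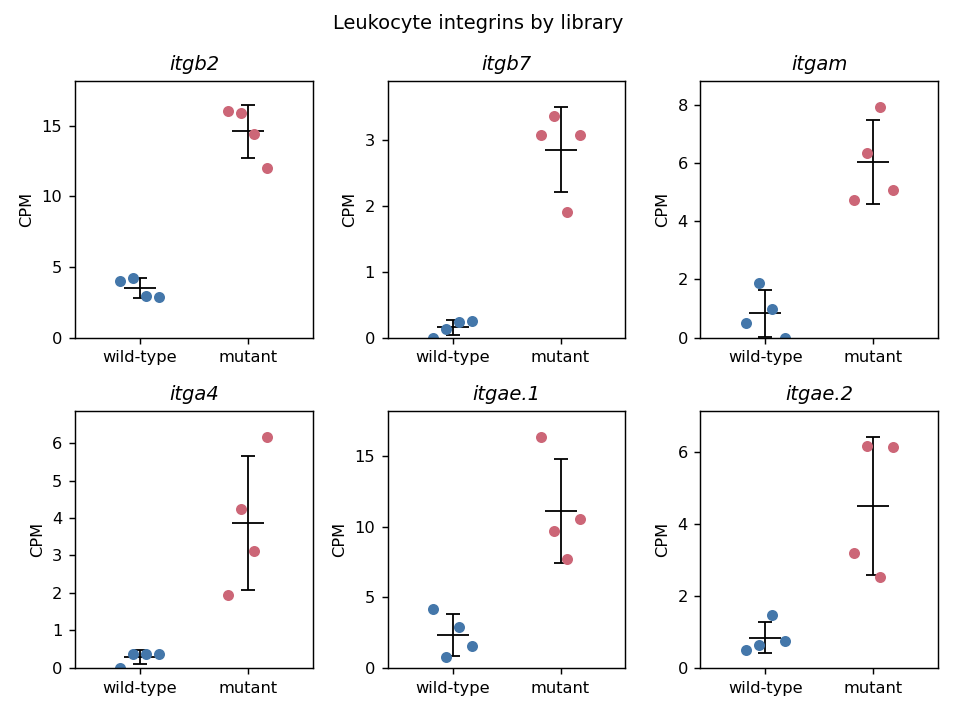
CPM of the 6 leukocyte integrins in each library (y axes start at 0); dots are libraries, with the horizontal line at the mean and the bar at 1 SD of 4 libraries. In every panel the lowest mutant dot lies above the highest wild-type dot, for *itgb2* at 12 against 4.25 CPM.

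Leukocyte markers other than integrins moved the same way. Of 36 such genes, 22 were tested and 21 were higher in mutants (95.5%, against 15.2% over all genes). In 10 of the 22 the filter level was reached in all mutants but not in all wild-types, so these had entered the test through their high group. The summed level of the 36 was 404 to 476 CPM in wild-types and 792 to 960 CPM in mutants. In bulk RNA, fewer cells of a type and less RNA per cell cannot be told apart, and the same holds for more cells and more RNA. All 10 tested microglia and macrophage markers, which are part of the leukocyte list, were higher (225 to 279 against 405 to 495 CPM). So were *lyz* and *mmp9* among 3 tested neutrophil markers (66.7%, against 15.2% over all genes). The neutrophil list summed to 4.39 to 10.2 against 17.5 to 38.8 CPM, and 5 of its 8 rows could not be tested. Of the tested markers, 6 of the 10 for microglia and macrophages and 2 of the 3 for neutrophils had likewise entered the test through their high group. Set against the leukocyte sum, *itgb2* came to 6.93 to 10.5 CPM per 1000 CPM of markers in wild-types and 12.5 to 18.2 in mutants. The median log2 fold change of the 22 tested leukocyte markers was 2.05, with a range of 0.57 to 3.42, beside 2.06 for *itgb2*. That median includes the 10 genes that had entered the test through their high group. The part of cell number in the integrin change was not tested.

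T cell markers could not be tested. None of the 7 in the table passed the filter, *cd8a* and *cd8b* had no count in any library, and the sum was 0.663 to 2.13 CPM in wild-types and 1.22 to 1.87 CPM in mutants. The alpha-4, alpha-E and beta-7 genes were higher in libraries whose T cell markers were near the limit of detection. Markers at that limit cannot show the part of T cells in the rise, which was not tested. The thrombocyte integrin genes, *itga2b* and *itgb3a*, which encode the platelet fibrinogen receptor in mammals, were also at that limit. *itga2b* had 3 counts over all wild-types and 0 over all mutants, *itgb3a* had 2 and 2, and neither was tested. Of 8 other thrombocyte markers, 3 were tested, with log2 fold changes of 0.22 to 3.23, and *thbs1b* was called higher. Their sum was 35.3 to 87.3 CPM in wild-types and 221 to 449.9 CPM in mutants, with the thrombopoietin receptor gene *mpl* at 0 in every library. *thbs1b* alone was at 30.3, 11.1, 18.2 and 66.2 CPM in wild-types and at 229, 367, 197 and 389 CPM in mutants. It made up most of the sum in each mutant, so the sum mainly describes that gene.

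Among the matrix-receptor integrins, 19 of 25 were tested, with a median log2 fold change of 0.66. In mutants 8 were higher (42.1%, against 15.2% over all genes) and 2 lower (10.5%, against 13.0%). In 4 of the 19 (*itga5*, *itgb1b.1*, *itgb3b* and *itgb6*) the filter level was reached in all mutants but not in all wild-types. These had entered the test through their high group, and the counts and median include them. The largest change among all the adhesion genes was that of *itga8* (ENSDARG00000078717), the alpha-8 chain, which pairs with beta-1 and binds nephronectin and other RGD-containing ligands. It was read at 1.99, 4.13, 3.66 and 3.92 CPM in wild-types and at 86.4, 78.3, 27.2 and 70.9 CPM in mutants. Mutant replicate 3 lay well under the other mutants and was still several times above every wild-type. The change was 18.7-fold (log2 4.22 ± 0.48 SE, edgeR adjusted p = 0.000663), and over all other settings tried it was between 3.77 and 4.5.

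*itgav* (ENSDARG00000006314), the alpha-v chain that joins the widest choice of beta chains, was the most abundant integrin in mutants and rose from 93.7, 73.2, 74.9 and 90.9 CPM to 198, 197, 145 and 203 CPM. Replicate 3 was again the low mutant, and the groups did not overlap. The change was 2.23-fold (log2 1.16 ± 0.12 SE, edgeR adjusted p = 1.06e-05). *itgb8* (ENSDARG00000028222), whose product forms the alpha-v beta-8 receptor that releases active TGF-beta from its latent complex in mammals, was at 17.4, 19.0, 15.6 and 19.8 CPM in wild-types and at 44.8, 41.0, 39.7 and 47.8 CPM in mutants. Both groups were tight and far apart (2.41-fold, log2 1.27 ± 0.11 SE, edgeR adjusted p = 4.49e-07).

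*itgb5* (ENSDARG00000012942), the other main beta partner of alpha-v, went down instead. It was at 80.1, 78.6, 86.5 and 80.9 CPM in wild-types and at 59.1, 61.8, 72.4 and 66.9 CPM in mutants. The decrease was small beside the increases of *itgav* and *itgb8*, with no overlap (log2 −0.33 ± 0.08 SE, edgeR adjusted p = 0.00637). *itgb6*, a beta partner of alpha-v in epithelia, was read at 1.16, 1.13, 0.488 and 0.505 CPM in wild-types and at 3.70, 2.31, 1.22 and 1.61 CPM in mutants (log2 1.44 ± 0.47 SE, edgeR adjusted p = 0.0312). Its groups came close to touching, and the call was lost without wild-type replicate 3 (edgeR adjusted p = 0.0917) or 4 (0.0866) and without mutant replicate 1 (log2 1.07, 0.134) or 2 (0.0678). *itgb3b*, a further alpha-v partner, was not called (log2 1.08, edgeR adjusted p = 0.0632).

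The beta-1 genes, which encode the partner of most matrix-binding alpha chains, gave 2 calls among 4 rows. *itgb1b* (ENSDARG00000104484) was at 5.47, 3.63, 5.0 and 4.30 CPM in wild-types and at 9.15, 6.93, 7.22 and 8.43 CPM in mutants (log2 0.79 ± 0.20 SE, edgeR adjusted p = 0.00756). *itgb1b.1* was at 1.82, 1.00, 0.854 and 0.632 CPM in wild-types and at 11.1, 4.33, 2.43 and 7.76 CPM in mutants (log2 2.59 ± 0.51 SE, edgeR adjusted p = 0.00215). Groups were apart for both genes, and mutant replicate 3 was the lowest mutant for *itgb1b.1*. *itgb1b.2* had no count in wild-types and 4, 5, 1 and 2 in mutants, and it was not tested. With the empty group set at 3 counts, those 12 counts would be 3.08-fold higher. By their names these are near copies, and how reads were divided among them is uncertain.

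*itgb1a* (ENSDARG00000071863) was not called, at 10.6, 14.5, 12.8 and 12.4 CPM in wild-types and 20.4, 13.2, 14.5 and 19.0 CPM in mutants (log2 0.40 ± 0.16 SE, edgeR adjusted p = 0.0758). Mutant replicates 1 and 4 lay above all wild-types and replicates 2 and 3 among them. Without mutant replicate 2 it was called (log2 0.50, edgeR adjusted p = 0.0350).

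Laminin-binding alpha chains went in both directions. *itga6a* was at 6.96, 8.13, 4.76 and 6.07 CPM in wild-types and at 9.57, 9.24, 8.26 and 18.9 CPM in mutants (log2 0.81 ± 0.27 SE, edgeR adjusted p = 0.0394). Mutant replicate 4 was far above the other mutants, and without it the log2 fold change was 0.48 (edgeR adjusted p = 0.119), while the call was also lost without wild-type replicate 1 (0.0730), 3 (0.108) or 4 (0.0943). *itga6b*, its paralog, fell from 12.6, 12, 11.2 and 10.6 CPM to 6.38, 9.53, 8.52 and 5.35 CPM (log2 −0.62 ± 0.18 SE, edgeR adjusted p = 0.0185). The groups were apart, and the edgeR adjusted p was 0.0568 without mutant replicate 1 and 0.0563 without mutant replicate 4. The paralogs thus had opposite signs, and the difference between them was not tested.

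*itga3b*, another laminin receptor chain, was at 6.3, 8.51, 8.90 and 5.05 CPM in wild-types and at 10.6, 9.82, 11.5 and 11.9 CPM in mutants (log2 0.60 ± 0.19 SE, edgeR adjusted p = 0.0253). No mutant fell into the wild-type range, but the call did not survive the loss of mutant replicate 3 (edgeR adjusted p = 0.0520) or 4 (0.0708) or of wild-type replicate 1 (0.0632) or 4 (0.0757). The fibronectin receptor chain *itga5* was at 3.32, 3.88, 2.32 and 0.505 CPM in wild-types and 6.48, 7.41, 4.17 and 3.88 CPM in mutants (log2 1.15 ± 0.42 SE, edgeR adjusted p = 0.0625). It missed the threshold with groups that lay next to each other near 3.88 CPM, and without wild-type replicate 2 it was called (log2 1.46, edgeR adjusted p = 0.0353). With all libraries it was called by DESeq2 (adjusted p = 0.0443) and by edgeR with unscaled library totals (adjusted p = 0.0490). The remaining tested alpha and beta chains were not called. They were *itga3a* (log2 0.66), *itgb4* (0.42, and called without mutant replicate 1 at 0.63 with an edgeR adjusted p of 0.0449), the collagen receptor chains *itga1* (−0.05), *itga11a* (−0.61) and *itga11b* (−0.24), and *itga9* (−0.27). *itga10*, *itga2.1*, *itga2.2*, *itga2.3* and *itga6l* had at most 7 counts in any library and were not tested.

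**Figure D3:**
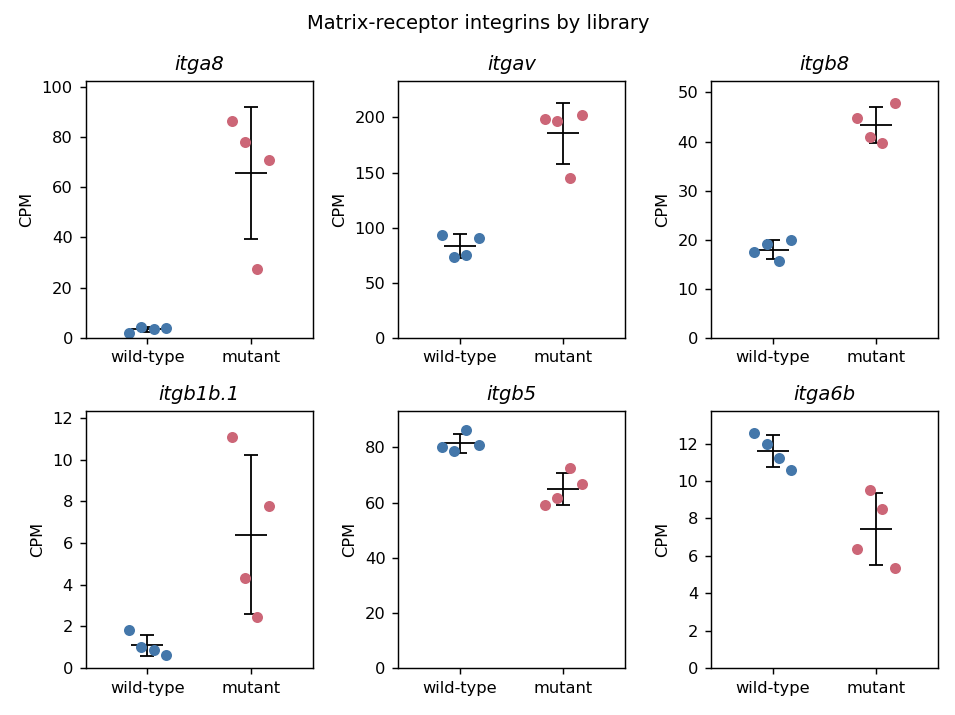
CPM of 6 matrix-receptor integrins in each library (y axes start at 0); dots are libraries, horizontal lines are means and bars are 1 SD of 4 libraries. *itga8*, *itgav*, *itgb8* and *itgb1b.1* are higher in all mutants, with mutant replicate 3 the lowest for *itga8* at 27.2 CPM, while *itgb5* and *itga6b* are lower in all mutants.

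Levels of different genes were compared in TPM, the deposited length-scaled values. Summed over 21 alpha genes, the level was 64.7 ± 3.62 TPM in wild-types and 146 ± 33.0 TPM in mutants (SD, n = 4 each). *itgav* supplied 47.1 ± 4.05% of that sum in wild-types and 47.8 ± 0.628% in mutants, so its share was alike while the sum went up. *itga8* went from 2.18 ± 0.698% to 18 ± 5.58% of the alpha sum, and *itga6b* from 6.95% to 2.09%, with no overlap between the groups in either share. A share also falls where a gene does not follow the rising sum. The uncalled *itga1* went from 11.9% to 5.36% and the uncalled *itga9* from 7.23% to 2.82%. Summed over 12 beta genes, the level was 68.5 ± 2.77 TPM in wild-types and 98.8 ± 14.0 TPM in mutants. *itgb5* made up 60.6 ± 1.72% of the beta sum in wild-types and 34.3 ± 4.21% in mutants, and *itgb8* 18.3 ± 2.1% and 31.2 ± 1.05%. In each wild-type library *itgb5* exceeded *itgb8*. Among mutants *itgb5* was at 34.2, 31.0, 33.6 and 35.1 TPM and *itgb8* at 35.6, 28.2, 25.3 and 34.4 TPM. There *itgb8* exceeded *itgb5* in replicate 1 alone. Their mutant means of 33.5 ± 1.75 and 30.9 ± 4.92 TPM differed by less than the SD of *itgb8*. *itgb2* went from 2.72% to 8.0% of the beta sum.

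**Figure D4:**
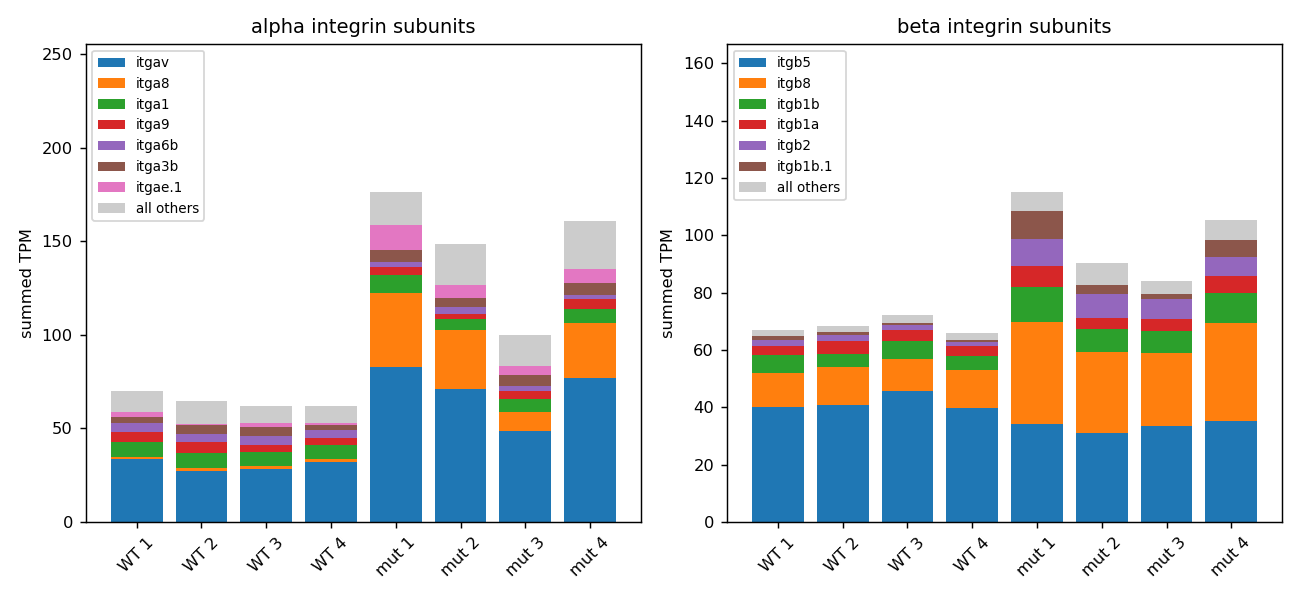
Summed TPM of the alpha (left) and beta (right) integrin genes in each library (y axes start at 0); colours divide each bar among the most abundant genes, with all others in grey. Alpha bars are 62.0 to 69.8 TPM in wild-types and 99.96 to 176 TPM in mutants, and *itgb5* fills most of each wild-type beta bar and under 40% of each mutant one.

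Pigment epithelium markers rose from at most 530 to at least 1522 CPM. Mutant replicate 3 was the lowest mutant, as it was for *itga8*, *itgav*, *itgb8* and *itgb1b.1*. The same replicate was also lowest among mutants for the leukocyte marker sum (792 CPM), *cdh2* and *ctnna1*. *itgb5* and *itga6b* fell, and *itgb5* was highest among mutants in that replicate, at 72.4 CPM. Per 1000 CPM of pigment epithelium markers, *itga8* was at 4.02 to 9.24 CPM in wild-types and 17.9 to 42.0 CPM in mutants. The marker sum, which gives most weight to its most abundant genes, rose 4.07-fold between the group means. The 17 tested markers had a median log2 fold change of 3.13 and a highest of 4.32, beside 4.22 for *itga8*. They include 6 that had entered the test through their high group. *itgav* was at 164 to 189 CPM per 1000 CPM of markers in wild-types and 95 to 98.4 CPM in mutants, and *itgb8* was at 35.2 to 42.6 against 20.3 to 26 CPM. *itgb1b.1* was at 1.19 to 3.69 against 1.6 to 5.40 CPM per 1000 CPM of markers, with overlap. The part of pigment epithelium RNA in these differences was not tested.

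The endothelial cadherin *cdh5* (VE-cadherin, ENSDARG00000075549), which holds vessel walls together, was not called. It was at 61.3, 62.7, 62.6 and 51.7 CPM in wild-types and at 52.5, 53.8, 52.4 and 57.0 CPM in mutants. The wild-type and mutant ranges overlapped through wild-type replicate 4 alone (log2 −0.14 ± 0.08 SE, edgeR adjusted p = 0.229), and no alternative gave a call. Of 12 other endothelial markers tested, *stab1*, *fli1b* and *pecam1* were higher and *esama* was lower (33.3% called, against 28.1% over all genes). In 4 of the 12 the filter level was reached in all mutants but not in all wild-types. The sum of the endothelial markers was 107 to 136 CPM in wild-types and 145 to 168 CPM in mutants. *stab1* and *pecam1* are also known from macrophages and other blood cells.

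Of 12 neural and glial cadherins, 11 were tested, with a median log2 fold change of −0.25. In mutants 2 were higher (18.2%, against 15.2% over all genes) and 5 lower (45.5%, against 13.0%). *cdh2* (N-cadherin, ENSDARG00000018693) had the highest level per length of all the adhesion genes, at 86.3 ± 5.99 TPM in wild-types and 124 ± 20.9 TPM in mutants. In CPM it was at 250, 221, 244 and 227 in wild-types and at 362, 316, 305 and 337 in mutants. All mutants were higher, by 1.40-fold (log2 0.49 ± 0.07 SE, edgeR adjusted p = 0.000114). *cdh12a*, a type II cadherin of the nervous system, was at 30.2, 25.1, 30.1 and 27.8 CPM in wild-types and at 36.5, 35.9, 29.4 and 44.1 CPM in mutants (log2 0.36 ± 0.12 SE, edgeR adjusted p = 0.0344). Mutant replicate 3 fell among the wild-types, and the call was lost without mutant replicate 1 (edgeR adjusted p = 0.0646), 2 (0.0633) or 4 (0.125) and without wild-type replicate 2 (0.104) or 4 (0.0697).

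The 5 that fell were all lower by less than 1.5-fold. *cdh24b* (ENSDARG00000077996), a type II cadherin, was at 45.8, 43.4, 48.2 and 46.2 CPM in wild-types and at 33.0, 29.4, 35.2 and 28.9 CPM in mutants. The groups were well apart (log2 −0.53 ± 0.09 SE, edgeR adjusted p = 0.000428). Its paralog *cdh24a* was at 67.8, 78.6, 65.6 and 77.5 CPM in wild-types and at 58.4, 50.9, 65.8 and 50.0 CPM in mutants, where mutant replicate 3 reached the lowest wild-type (log2 −0.36 ± 0.10 SE, edgeR adjusted p = 0.0127). That call was lost with unscaled library totals (log2 −0.26, edgeR adjusted p = 0.0666).

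The other 3 lay close to the threshold. *cdh4* (R-cadherin), a type I cadherin of the developing retina, was at 72.4, 61.2, 65.5 and 63.8 CPM in wild-types and at 60.5, 53.3, 57.8 and 49.6 CPM in mutants (log2 −0.25 ± 0.09 SE, edgeR adjusted p = 0.0460). *cdh18a* was at 49.6, 55.0, 48.2 and 48.0 CPM in wild-types and at 42.6, 39.9, 46.4 and 39.2 CPM in mutants (log2 −0.26 ± 0.09 SE, edgeR adjusted p = 0.0414). *cdh10a* was at 21.6, 21.0, 23.9 and 17.7 CPM in wild-types and at 17.0, 14.5, 18.7 and 13.6 CPM in mutants (log2 −0.39 ± 0.14 SE, edgeR adjusted p = 0.0412). Groups were apart for the first 2 and overlapped for *cdh10a*. These calls did not outlast some changes of method or the loss of single libraries. With all libraries and in the same order, DESeq2 did not call them (DESeq2 adjusted p = 0.0586, 0.0544 and 0.0568). Nor were they called with unscaled library totals (edgeR adjusted p = 0.293, 0.245 and 0.139) or by limma on log2 TPM. Median ratio scaling kept all 3 calls. For *cdh4* the call was lost without mutant replicate 2, 3 or 4 or wild-type replicate 1, 3 or 4, with edgeR adjusted p up to 0.134. For *cdh18a* it was lost without mutant replicate 1, 2 or 4 or wild-type replicate 1 or 2 (up to 0.124), and for *cdh10a* without mutant replicate 1, 2 or 4 or wild-type replicate 1, 2 or 3 (up to 0.121). *cdh6* (log2 −0.25, edgeR adjusted p = 0.0664), *cdh7a* (−0.28), *cdh11* (0.09) and *cdh22* (−0.06) were not called, and *cdh7b* was not tested, with 5 counts in wild-types and 8 in mutants. *cdh6* was called without wild-type replicate 1 (log2 −0.30, edgeR adjusted p = 0.0372).

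The cadherin sum over 27 rows was at 360 ± 14.0 TPM in wild-types and 360 ± 47.9 TPM in mutants (SD, n = 4 each), while the share of *cdh2* in it went from 24.0 ± 1.17% to 34.2 ± 1.79%. Beside *cdh2*, Müller glia markers summed to 1680 to 2153 CPM in wild-types and 1729 to 1790 CPM in mutants, with overlap. Of 15 tested, 4 were higher (26.7%, against 15.2% over all genes) and 2 lower (13.3%, against 13.0%). Beside the cadherins that fell, horizontal, bipolar, amacrine and ganglion cell markers had medians of −0.32, −0.20, −0.16 and −0.20 on the log2 scale. In that order, 3 of 10, 5 of 15, 5 of 14 and 5 of 14 were lower (30.0%, 33.3%, 35.7% and 35.7%, against 13.0% over all genes). The part of these cells in the cadherin values was not tested.

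In the group of epithelial and other cadherins, 6 of 14 rows were tested and 2 were lower (33.3%, against 13.0% over all genes). *cdh27* (ENSDARG00000055093) was at 14.1, 10.8, 9.63 and 15.7 CPM in wild-types and at 2.78, 2.79, 5.65 and 3.08 CPM in mutants. Mutant replicate 3 was the highest mutant and still under every wild-type. The decrease was 3.44-fold, the largest among the adhesion genes (log2 −1.78 ± 0.25 SE, edgeR adjusted p = 6.51e-05). Per 1000 CPM of cone markers it was at 0.457 to 0.769 CPM in wild-types and at 0.326, 0.326, 0.571 and 0.305 CPM in mutants. Those ranges overlapped through mutant replicate 3 alone. The part of cone RNA in the decrease was not tested.

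*cdh23*, a long cadherin of hair-cell tip links that is also known from photoreceptors, was listed under 2 identifiers. The first (ENSDARG00000007561) was at 24.7, 21.3, 19.4 and 22.0 CPM in wild-types and at 15.9, 16.3, 18.3 and 11.2 CPM in mutants (log2 −0.48 ± 0.14 SE, edgeR adjusted p = 0.0198). No mutant reached the wild-types, and the call was lost without mutant replicate 4 (edgeR adjusted p = 0.0539) or wild-type replicate 1 (0.0566). The second (ENSDARG00000094454) had the same sign and was not called (log2 −0.55 ± 0.25 SE, edgeR adjusted p = 0.116), and how reads were shared between the identifiers is uncertain.

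*cdh1* (E-cadherin, ENSDARG00000102750), the cadherin of epithelia, was not called although its fitted change was large. It was at 1.49, 0, 0 and 0.632 CPM in wild-types and at 7.30, 6.74, 0.348 and 13.6 CPM in mutants. The mutants were high in 3 libraries, and mutant replicate 3 was among the wild-types (log2 3.81 ± 1.28 SE, edgeR adjusted p = 0.0701). Without that library the call was made (log2 4.24, edgeR adjusted p = 0.0035). *cdh13*, a cadherin held by a lipid anchor, was at 30.5, 31.8, 27.9 and 32.5 CPM in wild-types and at 28.1, 24.1, 27.0 and 26 CPM in mutants, with overlap and no call (log2 −0.22, edgeR adjusted p = 0.109). *cdh16* was not called either (log2 0.24, edgeR adjusted p = 0.663). The 8 rows not tested (*cdh15*, *cdh17*, *cdh26.1*, *cdh26.2*, *cdh28*, *cdh29*, *cdh30* and *cdh31*) had at most 22 counts in any library.

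**Figure D5:**
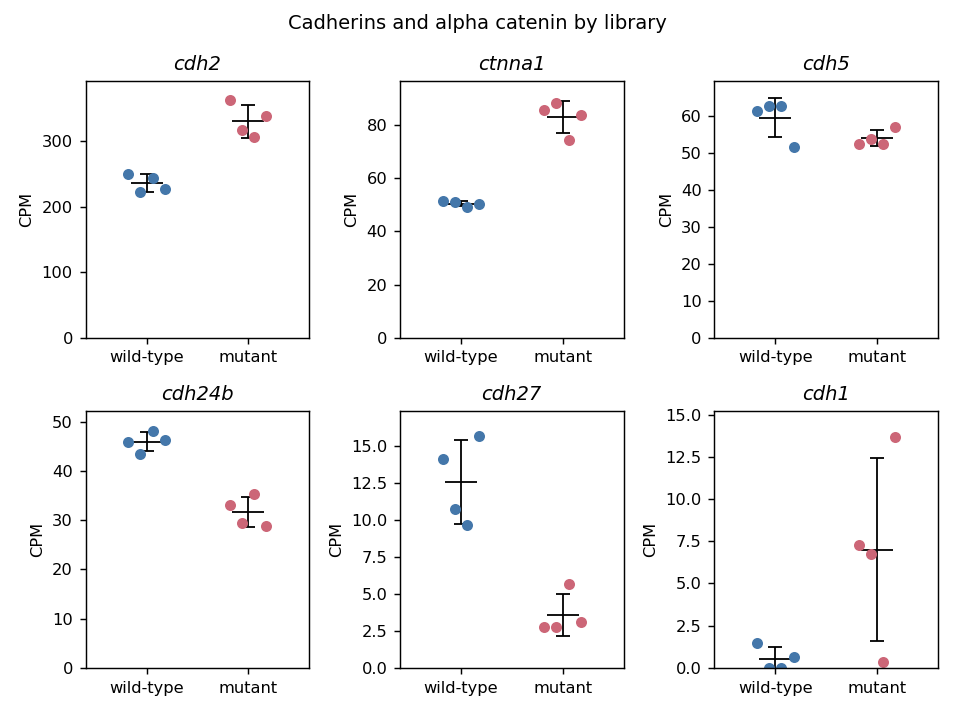
CPM of 5 cadherins and of *ctnna1* in each library (y axes start at 0); dots are libraries, horizontal lines are means and bars are 1 SD of 4 libraries. *cdh2* and *ctnna1* are higher and *cdh24b* and *cdh27* lower in all mutants, *cdh5* overlaps, and *cdh1* is high in 3 mutants and at 0.348 CPM in mutant replicate 3.

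Of the 6 catenins, all were tested, 1 was higher and 1 lower (33.3% called, near the 28.1% over all genes). *ctnna1* (alpha-E-catenin, ENSDARG00000102441), which ties cadherin complexes to actin, was at 51.2, 51.0, 49.0 and 50.3 CPM in wild-types and at 85.6, 88.3, 74.3 and 83.7 CPM in mutants. Wild-types were nearly identical and all mutants were higher, by 1.65-fold (log2 0.72 ± 0.08 SE, edgeR adjusted p = 5.27e-06). *ctnnd2a*, a neural delta-catenin, fell from 113, 106, 98.7 and 105 CPM to 93.0, 82.3, 87.0 and 75.5 CPM without overlap (log2 −0.32 ± 0.08 SE, edgeR adjusted p = 0.00616). That call was lost with unscaled library totals (log2 −0.22, edgeR adjusted p = 0.0736). *ctnnd2b*, the most abundant catenin per length, was at 152, 152, 164 and 151 CPM in wild-types and at 147, 136, 154 and 125 CPM in mutants and was not called (log2 −0.14 ± 0.08 SE, edgeR adjusted p = 0.190). The neural alpha-catenin *ctnna2* (log2 −0.07), *ctnnal1* (0.11) and p120-catenin *ctnnd1* (0.02) were not called. Per 1000 CPM of Müller glia markers, *ctnna1* was at 23.4 to 30.4 CPM in wild-types and 41.5 to 51.1 CPM in mutants, and *cdh2* at 105 to 137 and 171 to 203 CPM.

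The beta-1 tail binding protein gene *itgb1bp1* was at 4.31, 4.13, 4.27 and 6.44 CPM in wild-types and at 7.71, 5.97, 5.13 and 5.89 CPM in mutants, with overlap and no call (log2 0.36 ± 0.22 SE, edgeR adjusted p = 0.257). *itgbl1* had 1, 0, 0 and 6 counts in wild-types and 0 in mutants, and was not tested. With the empty group set at 3 counts it would be 3.03-fold lower, but 6 of the 7 wild-type counts lay in replicate 4.

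Partner genes were read from lists of adaptors, ligands and junction proteins that exclude the genes above. Of 31 tested integrin adaptors and kinases, 7 were higher and 3 lower, with a median of 0.04, and the 32.3% called was near the 28.1% over all genes. *tln1* (talin, which switches integrins on from inside the cell) was at 39.8, 35.8, 32.4 and 34.6 CPM in wild-types and at 64.8, 63.3, 52.4 and 62.3 CPM in mutants (log2 0.77 ± 0.10 SE, edgeR adjusted p = 2.02e-05). The leukocyte kindlin *fermt3a* (log2 2.56 ± 0.35 SE, edgeR adjusted p = 5.58e-05) and *apbb1ip* (RIAM, 2.37 ± 0.40 SE, edgeR adjusted p = 0.000356), both known from blood cells, rose as well. Both had entered the test through their high group. In 4 of the 31, these included, the filter level was reached in all mutants but not in all wild-types, and in 2 the reverse held. The paxillin copies went opposite ways. *pxnb* rose (log2 0.78 ± 0.14 SE, edgeR adjusted p = 0.000526) and *pxna* fell from 23.5, 33.3, 19.1 and 21.4 CPM to 12.2, 10.9, 13.5 and 11.8 CPM (log2 −1.01 ± 0.16 SE, edgeR adjusted p = 0.000228). The tensins *tns1a* (log2 −0.39 ± 0.07 SE, edgeR adjusted p = 0.000555) and *tns2b* (−1.24 ± 0.37 SE, edgeR adjusted p = 0.0202) fell. *tns2b* overlapped between the groups and was not called without mutant replicate 2 (edgeR adjusted p = 0.0554) or 4 (0.0603) or wild-type replicate 1 (0.0625) or 4 (0.0693).

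Among 32 tested ligands and counter-receptors, 8 were higher and 1 lower, with a median of 0.21, and the share called was the same 28.1% as over all genes. In 3 of the 32 the filter level was reached in all mutants but not in all wild-types, and in 0 the reverse held. *mfge8a*, whose mammalian counterpart bridges apoptotic cells or outer segments to alpha-v integrins, was at 19.4, 27.4, 23.3 and 20.3 CPM in wild-types and at 43.9, 45.9, 43.7 and 59.4 CPM in mutants. All mutants were higher (log2 1.08 ± 0.13 SE, edgeR adjusted p = 1.34e-05). The laminin chains *lama1* (log2 0.81 ± 0.14 SE, edgeR adjusted p = 0.000367) and *lamc1* (0.67 ± 0.15 SE, edgeR adjusted p = 0.00250) rose, and *thbs1b*, a thrombospondin, went from 11.1 to 66.2 CPM over the wild-types to 197 to 389 CPM over the mutants (3.23 ± 0.59 SE, edgeR adjusted p = 0.00811). The tenascin *tnr* was lower (log2 −0.35 ± 0.08 SE, edgeR adjusted p = 0.00579). The counter-receptor genes *vcam1a* (log2 −0.23) and *vcam1b* (−0.19) were not called, beside the rise of *itga4*.

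All 24 cadherin partners and nectins in the table were tested, with 5 higher, 4 lower and a median of 0.08, or 37.5% called against 28.1% over all genes. The beta-catenin genes *ctnnb2* (log2 0.40 ± 0.07 SE, edgeR adjusted p = 0.000757) and *ctnnb1* (0.36 ± 0.08 SE, edgeR adjusted p = 0.00451) and the afadin gene *afdna* (0.30 ± 0.07 SE, edgeR adjusted p = 0.00294) rose in the same libraries as *cdh2* and *ctnna1*, and *iqgap1* rose by 0.82 ± 0.22 SE (edgeR adjusted p = 0.010). The p120-family genes *pkp4* and *arvcfa* went the other way, as *ctnnd2a* had. *pkp4* was at 121, 133, 115 and 129 CPM in wild-types and at 80.2, 74.5, 73.2 and 71.6 CPM in mutants (log2 −0.73 ± 0.07 SE, edgeR adjusted p = 2.52e-06), and *arvcfa* changed by −0.53 ± 0.11 SE (edgeR adjusted p = 0.00126). *ptprfa* (log2 −0.41 ± 0.12 SE, edgeR adjusted p = 0.0179) and *jupb* (−0.28 ± 0.08 SE, edgeR adjusted p = 0.0187) were lower. *ptprfa* lost its call without mutant replicate 2 or 4 or wild-type replicate 1 or 2, and *jupb* without mutant replicate 1 or 3 or wild-type replicate 2, with edgeR adjusted p up to 0.0570 and 0.0666.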

How the data were processed

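Total RNA of 8 retina samples, 4 per genotype, had been depleted of ribosomal RNA and sequenced from stranded paired-end libraries. The authors aligned reads to the zebrafish genome (GRCz11, Ensembl annotation) with STAR and deposited raw counts per gene. The TPM values, also deposited by the authors, are scaled by gene length and library size, and were used only to compare levels between genes and in 1 alternative. The strand setting of the counting and the tool for TPM are not given in the sources used here. Submitters' notes name DESeq2 1.30.1 and R 4.0.4 for the authors' own comparison, whose fold changes and p-values were not used. The deposited normalized counts were not used either.

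Counts were fitted in R 4.3.3 with edgeR 4.0.16 (quasi-likelihood, robust, TMM scaling, filterByExpr at a count minimum of 10, genotype as the only term), and p-values were adjusted over all tested genes by Benjamini-Hochberg at 0.05. CPM are counts over TMM-scaled totals. The SE is the fold change over the root of F. The biological coefficient of variation was 13.6%. Both that spread and the totals of 6279179 to 11496801 counts per library limit the precision. Fits were tested on simulated data. Alternatives used DESeq2 1.42.0, limma 3.58.1 on log2(TPM + 0.5), other scalings and filters, a replicate block and single libraries left out. P-values measure only the spread between these samples. Adjusted p-values given without a tool are edgeR's.

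The genes, role classes and lists were chosen with earlier results of these data known. Values per library are given in each class for up to 6 called genes in each direction by smallest p and for its most abundant gene. They are also given for *cdh5*, *itgb2*, *cdh2*, *cdh1*, *itgb1a*, *itgb1b* and *ctnna1*, and for a few others named after their values were seen (*itga5*, *itga6a* and *itgb6* among them). Partner lists give up to 4 called genes in each direction. The marker list for pericytes (5 tested, 0 called) is not discussed further. Of the 68 rows, 67 had a name in the reference name table and 52 the same symbol there.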

Additional observations from a re-analysis of the deposited data

Results flagged for a closer look

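In 9 of 68 groups of 4 libraries, 1 library lay far from the other 3 by Dixon's criterion, which chance gives in about 1 in 20 groups. In mutant replicate 3, *itgav* was lowest at 145 CPM and *cdh27* highest at 5.65 CPM. *itga6a* stood out in mutant replicate 4, at 18.9 CPM. Among wild-types, *itga4* was at 0 CPM in replicate 1, *cdh5* was at 51.7 CPM and *itgb1bp1* at 6.44 CPM in replicate 4, and *ctnnd2b* was at 164 CPM in replicate 3. *itgb3a* was read in 1 library of each genotype only, at 0.253 CPM in wild-type replicate 4 and 0.193 CPM in mutant replicate 2.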

How the results depend on the processing

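Of the 27 called genes, 16 kept their call in each of the 15 other settings in which they were tested, and 11 lost it in at least 1 (7 of the 10 lower, 4 of the 17 higher). Of the 23 not called, 6 were called in some setting. With at least 10 counts in every library, 17 were called, 10 of them higher. The 7 lost higher calls were of genes no longer tested, while *cdh10a*, *cdh18a* and *cdh4* were still tested and missed the threshold (edgeR adjusted p = 0.0581, 0.0685 and 0.0770), and the cause was not tested. With limma on log2 TPM 17 were called, 3 of them lower, and with library totals in place of TMM 4 were lower. The cause was not tested for either. DESeq2 gave 25. Without single libraries, 19 to 26 were called, 13 to 17 higher and 5 to 9 lower, with the fewest lower without mutant replicate 4.

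Changes of sign occurred only in genes that were never called. With library totals, *itga1* was at 0.053, *cdh22* at 0.043 and *ctnna2* at 0.030 on the log2 scale. Without single libraries, *itga1* ran from −0.11 to 0.042, *itga11b* from −0.62 to 0.079, *cdh22* from −0.19 to 0.035, *cdh16* from −0.014 to 0.43, *ctnnal1* from −0.021 to 0.20 and *ctnnd1* from −0.0030 to 0.061. The cause was not tested.

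Replicate numbers were shared by the genotypes, but nothing in the labels paired them, and deviations of same-numbered libraries correlated at only 0.06, −0.07, 0.06 and 0.06. With the number as a block, 29 genes were called, 19 higher and 10 lower, and 4759 over all genes. Low counts limit *itgb7*, *itga4*, *itgam* and *cdh1*, and 18 rows could not be tested.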

Other observations

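One row written in capitals, *CDH18* (ENSDARG00000102769), fell outside the symbol rule and was chosen after its values were seen. It was at 83.4, 106, 114 and 117 CPM in wild-types and at 104, 126, 131 and 129 CPM in mutants, and was not called (log2 0.22 ± 0.10 SE, edgeR adjusted p = 0.138). Over the alternatives its edgeR, limma or DESeq2 adjusted p ran from 0.0221 to 0.360. It was called with library totals and with the replicate block. *cdh18a*, the row in lower case, was at −0.26.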
